A study of Homo sapiens with 48 samples.

Results

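IL11mNG fibroblasts carrying dCas9–VP64 and a non-targeting guide were compared after 24 h and after 6 h with TGFβ and IL-1β, over 6 of the 48 libraries of the series. The members were chosen by column name in the deposited count table, as the 3 columns beginning VP64_Ctrl_24hr and the 3 beginning VP64_Ctrl_6hr. The comparison asks which part of the early response to both cytokines was withdrawn, kept or extended later in the first day.

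The cells descend from CRL-4001, an immortalized human skin fibroblast line, through a single-cell clone in which the fluorescent protein mNeonGreen was joined to IL11 by a self-cleaving peptide. They were transduced with lentivirus for dCas9–VP64, a catalytically inactive Cas9 fused to a transcriptional activator, and for a guide RNA, and were kept as selected bulk populations. VP64_Ctrl received the non-targeting guide, and VP64_A received a GLIS3 guide. H47_Ctrl, the control population of the knockout arm, carried active Cas9 with a non-targeting guide. TGFβ and IL-1β were added at 10 ng per ml each, and the times 0, 6, 12 and 24 h were counted back from a single harvest, with 3 libraries for each population and time. A library therefore stands for cells of a transduced population of the line, not for a donor. Nothing in the labels says whether the 3 libraries of a condition came from separate cultures. The p-values therefore measure only the spread between libraries of the same group, which was estimated over all 24 libraries of the activation arm.

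Within the activation arm the labels disagree. The libraries described as VP64_Ctrl are titled as GLIS3 activation, and their cell line field reads Cas9+ and knockout. GLIS3 was at 2.31 to 5.29 CPM (counts scaled to a common library total, here without TMM scaling) in the 12 libraries described as VP64_Ctrl and at 13.5 to 38 CPM in the 12 described as VP64_A, levels that go with the descriptions, and the groups are named here by description. The 3 libraries at 6 h held 7074989, 4723683 and 2321995 estimated counts, and the 3 at 24 h held 6814412, 2940870 and 6800520. TMM factors, which scale the libraries for composition, were 0.988, 0.84 and 0.744 at 6 h and 0.982, 1.05 and 1.15 at 24 h, so the groups almost separated in this factor, whose part in the results was not tested beyond the other scalings given below. The fibroblast label was borne out in that 10 of 10 of its markers were detected. Their summed level was 31600 to 37100 CPM at 6 h and 34700 to 39100 CPM at 24 h. VIM alone, at means of 23800 CPM at 6 h and 24000 CPM at 24 h, made up most of that sum. Macrophage markers summed to at most 2.15 CPM with AIF1, LYZ, CD163, MARCO and FCGR1A at 0 in all 6 libraries, epithelial markers to at most 10.6 CPM, mostly KRT14, endothelial markers to at most 0.635 CPM, and the T cell markers in the table were at 0.

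IL-1β signals through a receptor complex that recruits MYD88 and IRAK kinases and activates NF-κB and AP-1. These factors switch on cytokine and chemokine genes together with inhibitors of the pathway, such as TNFAIP3 and the DUSP phosphatases. TGFβ acts through receptors that phosphorylate SMAD proteins, which raise collagen, contractile and protease-inhibitor genes and repress the ID genes. Interferon-stimulated genes answer to JAK-STAT signalling from interferon receptors, and NRF2 drives genes for glutathione, thioredoxin and NADPH. In fibroblasts, early NF-κB targets usually decline after their peak, and matrix genes follow on a slower clock.

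DNA upstream of several of the genes that the results turn on is shown first, since it is where these factors would act. Windows of 250 bases upstream of annotated start sites (RefSeq, GRCh38.p14, on primary chromosomes) were searched on both strands for short motifs. A κB motif was present in 5.21% of 35116 such windows and in 7.99% of the tested genes with a window. It was found in 7 of 10 chemokine genes with a window (CXCL1, CXCL2, CXCL3, CXCL5, CXCL6, CXCL10 and CCL20), in 9 of 14 NF-κB genes and, among cytokine genes, in 2 of 6 (IL6 and IL32). The runs below are 5′ to 3′ on the strand of the gene, with the κB match in capitals; in CXCL1, CXCL2 and CXCL3 a match on each strand overlaps.
CXCL1, chr4:73869289-73869349, plus strand: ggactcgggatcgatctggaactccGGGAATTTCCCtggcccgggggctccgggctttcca
CXCL2, chr4:74099238-74099298, minus strand: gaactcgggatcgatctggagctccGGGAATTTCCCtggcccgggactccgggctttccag
CXCL3, chr4:74038733-74038793, minus strand: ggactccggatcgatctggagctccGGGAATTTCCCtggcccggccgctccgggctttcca
CCL20, chr2:227813738-227813797, plus strand: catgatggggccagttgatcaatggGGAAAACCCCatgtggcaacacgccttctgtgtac
IL6, chr7:22727102-22727161, plus strand: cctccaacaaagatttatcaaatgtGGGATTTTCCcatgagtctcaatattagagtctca
CXCL10, chr4:76023585-76023699, minus strand: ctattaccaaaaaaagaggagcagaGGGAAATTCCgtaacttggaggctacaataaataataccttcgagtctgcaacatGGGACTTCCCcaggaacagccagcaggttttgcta

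The first 5 of these genes were lower at 24 h than at 6 h and CXCL10 was higher, so a κB match stood upstream of genes that moved either way. Among interferon-stimulated genes, 12 of 16 with a window held an interferon-stimulated response element (GAAA, any pair of bases and GAAA again), a motif added after the values were seen and present in 3.02% of all windows and 3.43% of tested genes. MX1 and IFI27 are shown because they are among the genes that rose most; the capitals mark the matches, and for MX1 the window belongs to its most downstream annotated start.
MX1, chr21:41431829-41431888, plus strand: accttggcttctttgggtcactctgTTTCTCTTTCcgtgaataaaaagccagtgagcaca
IFI27, chr14:94110603-94110675, plus strand: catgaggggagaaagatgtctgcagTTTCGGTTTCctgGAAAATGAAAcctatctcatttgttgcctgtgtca

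Of 10980 genes tested in the activation arm, 986 were higher at 24 h than at 6 h (8.98%) and 1038 were lower (9.45%), at an adjusted p under 0.05 by edgeR's quasi-likelihood test. Changes of at least 1 on the log2 scale accounted for 515 of the higher and 438 of the lower genes. The median log2 fold change over all genes tested was 0.0292. With limma on log2(TPM + 1), in which each library is scaled to one total, that median was 0.331. The split became 1561 higher and 325 lower, so the balance of the directions depends on the scaling. The lists below are read against the median and against the shares of all genes called, 8.98% higher and 9.45% lower. In 1933 genes (17.6%) the 3 libraries at 24 h all lay above the 3 at 6 h, and in 1845 (16.8%) all lay below. In a bulk library, fewer cells of a kind and less RNA per cell cannot be told apart.

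**Figure D1:**
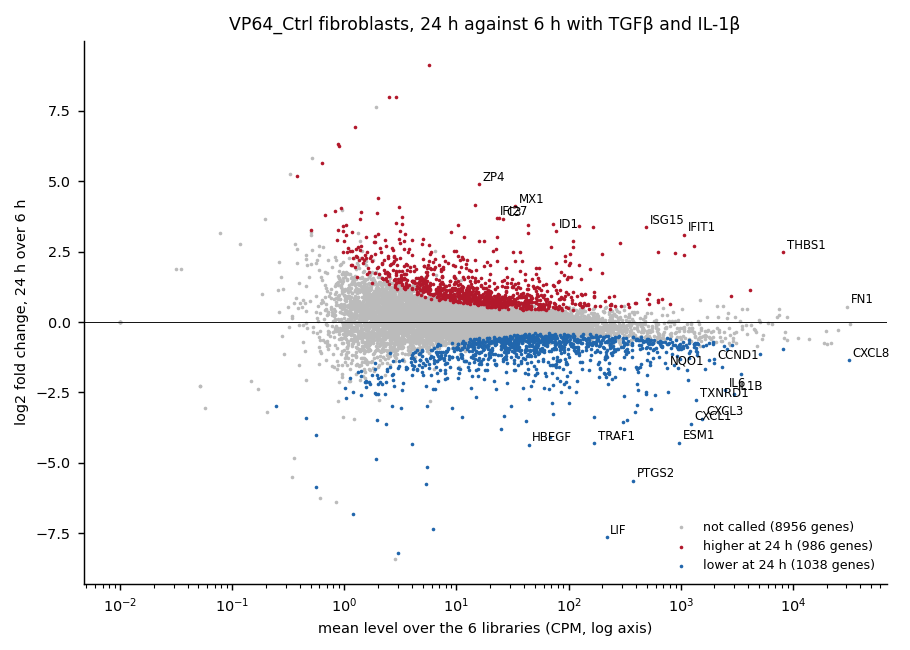
Log2 fold change at 24 h over 6 h in VP64_Ctrl against the mean CPM of the 6 libraries (log axis), with each of the 10980 tested genes as a point. The 986 genes called higher and 1038 called lower are coloured. Large falls included cytokine-induced genes at intermediate and high levels (LIF, PTGS2, TRAF1, ESM1) and also rare genes. The interferon-stimulated genes ISG15 and IFIT1 stood out among the abundant genes that rose.

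Most of the tested stromal cytokines fell. Of 18 members of the IL-6 family and other stromal cytokines, 7 were not in the test. Of the 11 tested, 10 were lower at 24 h and 1 was higher, with a median log2 fold change of -1.80. Genes near 0 at 0 h pass the filter on counts only through libraries where they are high. Rises from 0 h and later falls in such genes are therefore partly set by the filter. All 11 had been higher at 6 h than at 0 h, where 28.8% of genes were called (1777 higher and 1388 lower, or 465 and 5270 with limma on log2(TPM + 1)). At 24 h, 10 of 11 were still higher than at 0 h, where 16% of genes were called (1140 higher and 612 lower, or 420 and 1396 with limma on log2(TPM + 1)). The balance of directions against 0 h thus depends on the scaling, here and in the lists below. Replicate 3 of the 0 h libraries stood apart in composition (TMM factor of 1.84), and without it the genes called against 0 h numbered 2439 instead of 3165 at 6 h and 1482 instead of 1752 at 24 h.

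LIF, an IL-6 family cytokine that acts through LIFR and gp130, had the largest fall among genes with a mean of at least 20 counts and no overlap between the times. Its level was 275, 578 and 451 CPM at 6 h and 1.80, 1.94 and 2.56 CPM at 24 h. No library came near the other group, and the log2 fold change was -7.65 ± 0.38 (SE; adjusted p = 2.36e-15). Most of this fall had occurred by 12 h, when the mean was 7.41 CPM (log2 fold change from 6 h of -5.82).

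IL6, the best known member of the family, stood at 3223, 4399 and 4903 CPM at 6 h and at 935, 818 and 579 CPM at 24 h, a 5.37-fold fall. IL1B, which encodes the added IL-1β itself, stood at 3962, 5203 and 6148 CPM and then at 980, 979 and 662 CPM, 5.84-fold lower. The groups did not overlap in either gene, and both remained far above their levels at 0 h (means of 2.46 and 1.09 CPM). IL1A fell 9.71-fold, CSF1 3.48-fold and CSF3 2.68-fold. CSF2, the gene for GM-CSF, kept its 6 h level at 12 h (mean of 1584 CPM) and only then declined, from 1002, 1383 and 1520 CPM at 6 h to 261, 244 and 190 CPM at 24 h. IL32 was the exception that rose, from 20.5, 18.7 and 16.2 CPM to 39.6, 26.9 and 36.9 CPM (adjusted p = 0.00177).

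IL11, the reporter locus of these cells, was at 31.8, 50.7 and 58.5 CPM at 6 h and at 27.8, 20.7 and 23.1 CPM at 24 h. The 3 later libraries lay below the 3 earlier ones, with a log2 fold change of -0.92 ± 0.25 (adjusted p = 0.01), and the call was lost without replicate 2 or without replicate 3 at 6 h (adjusted p = 0.0527 and 0.061). It was also lost with limma on log2(TPM + 1), at a log2 fold change of -0.55 (adjusted p = 0.126). IL11 stayed above its mean of 6.35 CPM at 0 h (log2 fold change of 1.94 at 24 h). GLIS3, the transcription factor that the study ties to IL11, did not pass the test between 6 and 24 h (log2 fold change of -0.50, adjusted p = 0.267), at 4.01, 6.31 and 3.48 CPM and then 3.14, 2.92 and 3.71 CPM on TMM-scaled library sizes.

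Chemokines divided by direction. Of 18 members, 5 were not in the test, and the same limit of the filter holds. Of the 13 tested, 7 were lower, 3 were higher and 3 did not pass, with a median of -1.35. The neutrophil-attracting CXCL1, CXCL2 and CXCL3, whose near-identical upstream sequences are printed above, moved together. CXCL1 went from 1371, 2323 and 3148 CPM to 206, 222 and 134 CPM, CXCL2 from 495, 979 and 1423 CPM to 126, 133 and 83.4 CPM, and CXCL3 from 2092, 2754 and 3718 CPM to 278, 317 and 200 CPM. The falls were 12.2-fold, 8.46-fold and 10.8-fold, with no overlap between the times. These paralogs are similar in sequence, so reads shared between them leave each single value less certain than their sum.

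CXCL8, a chemokine of the same kind and among the most abundant transcripts in these libraries, fell less. Its level was 42775, 40811 and 52517 CPM at 6 h and 20867, 19482 and 12958 CPM at 24 h, a 2.55-fold fall (adjusted p = 0.0153) that no longer passed without replicate 3 at 24 h (adjusted p = 0.0806) or without replicate 3 at 6 h (adjusted p = 0.0541). CCL2, which draws monocytes, fell from 2027, 2506 and 3069 CPM to 957, 897 and 533 CPM, and its mean at 12 h, 356 CPM, was below that at 24 h. CCL20, the ligand of CCR6, fell from 10.9, 7.82 and 12.7 CPM to 2, 1 and 0 counts in the 3 libraries, so its fold is not given.

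The 3 chemokines that rose were rare transcripts. CXCL6 went from 3.44, 3.53 and 4.06 CPM to 16.2, 17.2 and 11.1 CPM, and CXCL5 from 4.44, 5.05 and 0.58 CPM to 13, 21.7 and 13.4 CPM. Both were at 0 in all libraries at 0 h. CXCL10, an interferon-responsive chemokine, had 2 counts in each 6 h library and 6.13, 6.16 and 5.24 CPM at 24 h. CXCL5, CXCL6 and CXCL8 lie in the same cluster on chromosome 4 as CXCL1 to CXCL3, and its members therefore moved in opposite directions.

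**Figure D2:**
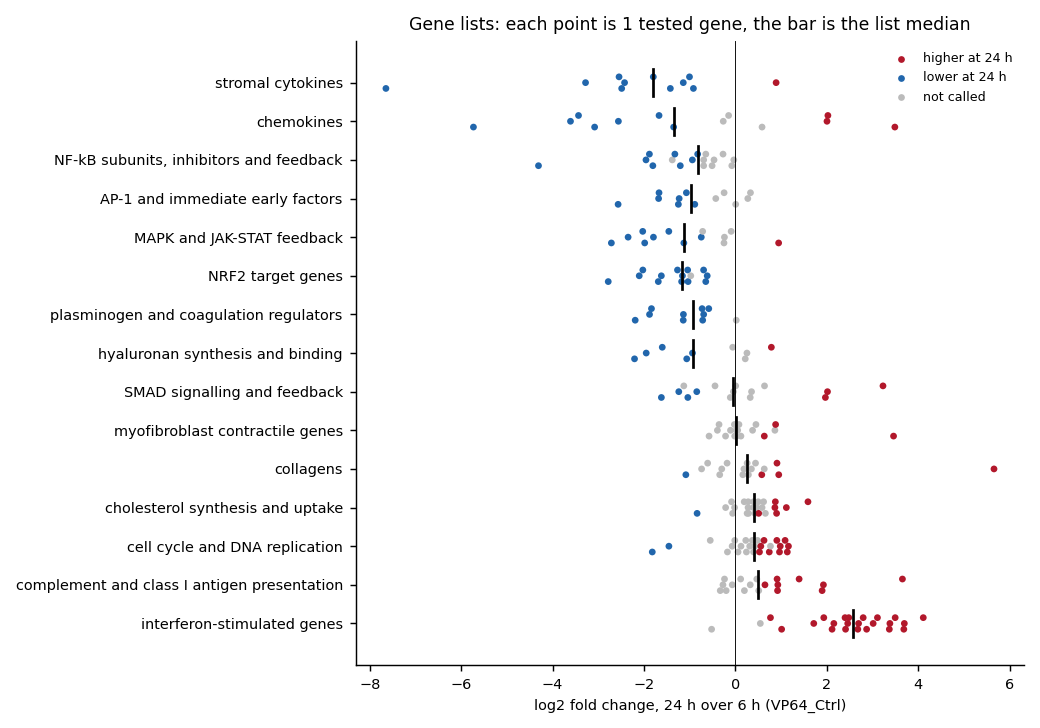
Log2 fold change at 24 h over 6 h in VP64_Ctrl for the tested members of 15 gene lists, each point a gene and each bar the median of its list. Points are blue where the gene was called lower, red where it was called higher and grey where it did not pass. Stromal cytokines, chemokines and NRF2 targets lay mostly below 0, collagens and contractile genes around 0, and 22 of 24 interferon-stimulated genes were called higher.

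The NF-κB machinery itself receded in part. Of 17 tested subunits, inhibitors and feedback genes, 8 were lower and 0 were higher by edgeR (0 at an unadjusted p under 0.05 and 0 by DESeq2 or limma), with a median of -0.826, and 14 of the 17 were higher at 24 h than at 0 h. The count of lower genes was 5 to 10 over the alternatives. TRAF1, an adaptor of TNF receptors, went from 310, 324 and 333 CPM to 18.3, 11.3 and 17.8 CPM, a 19.8-fold fall. TNFAIP3, the ubiquitin-editing enzyme A20 that restrains the pathway, went from 322, 463 and 456 CPM to 101, 102 and 115 CPM. NFKB1, the p105 precursor of a subunit, fell 3.69-fold, and the apoptosis inhibitors BIRC2 and BIRC3 fell 3.50-fold and 2.31-fold.

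Not every NF-κB target followed. NFKBIA, the inhibitor IκBα, was at 532, 737 and 762 CPM and then at 458, 536 and 431 CPM (adjusted p = 0.0866). SOD2, the mitochondrial superoxide dismutase, was at 1470, 1530 and 1981 CPM and then at 1662, 1460 and 1002 CPM (adjusted p = 0.434), and its small difference changed sign under limma on TPM (0.23). Both stood far above their 0 h means of 39.2 and 13.8 CPM at each time. Upstream of NF-κB, 3 of 12 tested genes of the IL-1 receptor pathway were called: the kinase IRAK2 fell 2.87-fold, TAB2 was also lower (log2 fold change of -0.92), and the adaptor MYD88 rose from 60.0, 68.9 and 84.0 CPM to 158, 121 and 160 CPM. IL1R1, the receptor, did not pass (adjusted p = 0.274).

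AP-1 factors and the feedback regulators of MAP kinase and JAK–STAT signalling were lower as well. Among 12 AP-1 and immediate early factors, 7 were lower and 0 higher by edgeR (median -0.981; 1 higher at an unadjusted p under 0.05, FOSL2, and 0 by DESeq2 or limma). The count of lower genes was 3 to 7 over the alternatives. The low point came before 24 h, since 10 of the 12 were lower at 12 h than at 6 h (9.23% of genes called) and 5 were higher at 24 h than at 12 h (8.38% of genes called). FOSL1, the AP-1 subunit FRA1, stood at 353, 476 and 497 CPM at 6 h and 177, 208 and 174 CPM at 24 h, close to its mean of 169 CPM at 0 h. JUN fell 2.35-fold (adjusted p = 0.0563 with limma on log2(TPM + 1)), MAFF 3.19-fold and the zinc finger factor KLF6 3.21-fold, while FOSL2 and JUNB did not pass (adjusted p = 0.151 and 0.0945).

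Of 13 feedback genes, 8 were lower and 1 was higher (median -1.13), with 4 to 9 lower over the alternatives. DUSP6, the phosphatase of ERK, went from 55.0, 81.7 and 95.6 CPM to 10.6, 13.3 and 11.4 CPM, and the Sprouty genes SPRY2 and SPRY4, which damp receptor tyrosine kinases, fell 5.09-fold and 4.08-fold. All 3 were already low at 12 h, with means of 14.1, 6.28 and 6.87 CPM. SOCS3, the inhibitor induced by IL-6 family cytokines, fell 2.75-fold, a call that was lost without replicate 2 at 6 h (adjusted p = 0.0964).

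PTGS2, the inducible cyclooxygenase COX-2, fell 49.9-fold. It stood at 546, 756 and 922 CPM at 6 h, at a mean of 62.3 CPM at 12 h and at 16.9, 18.5 and 10.1 CPM at 24 h, with a log2 fold change of -5.64 ± 0.33 (adjusted p = 2.51e-14). At 24 h its difference from 0 h did not pass the test (log2 fold change of -0.53, adjusted p = 0.252). PTGS1, the constitutive cyclooxygenase, went the other way, from 43.7, 43.9 and 41.7 CPM to 99.5, 114 and 99.4 CPM. PTGFR, the prostaglandin F receptor that the study names, did not pass (log2 fold change of -0.18). In all, 2 of 10 genes of the prostaglandin pathway were higher and 1 was lower, against 8.98% and 9.45% of all genes.

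HBEGF and EREG, growth factors that engage the EGF receptor, were lower at 24 h. HBEGF went from 82.2, 89.3 and 80.0 CPM to 2.09, 5.51 and 5.11 CPM, and EREG from 601, 806 and 1125 CPM to 153, 220 and 58.6 CPM. HBEGF was back at its 0 h level by 12 h, with means of 4.69 and 5.30 CPM, whereas EREG still stood well above its 0 h mean of 28.2 CPM. ANGPTL4, an inhibitor of lipoprotein lipase, fell 17-fold. The list of 16 secreted growth and angiogenic factors held 5 lower and 2 higher genes, with a median of -0.419.

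**Figure D3:**
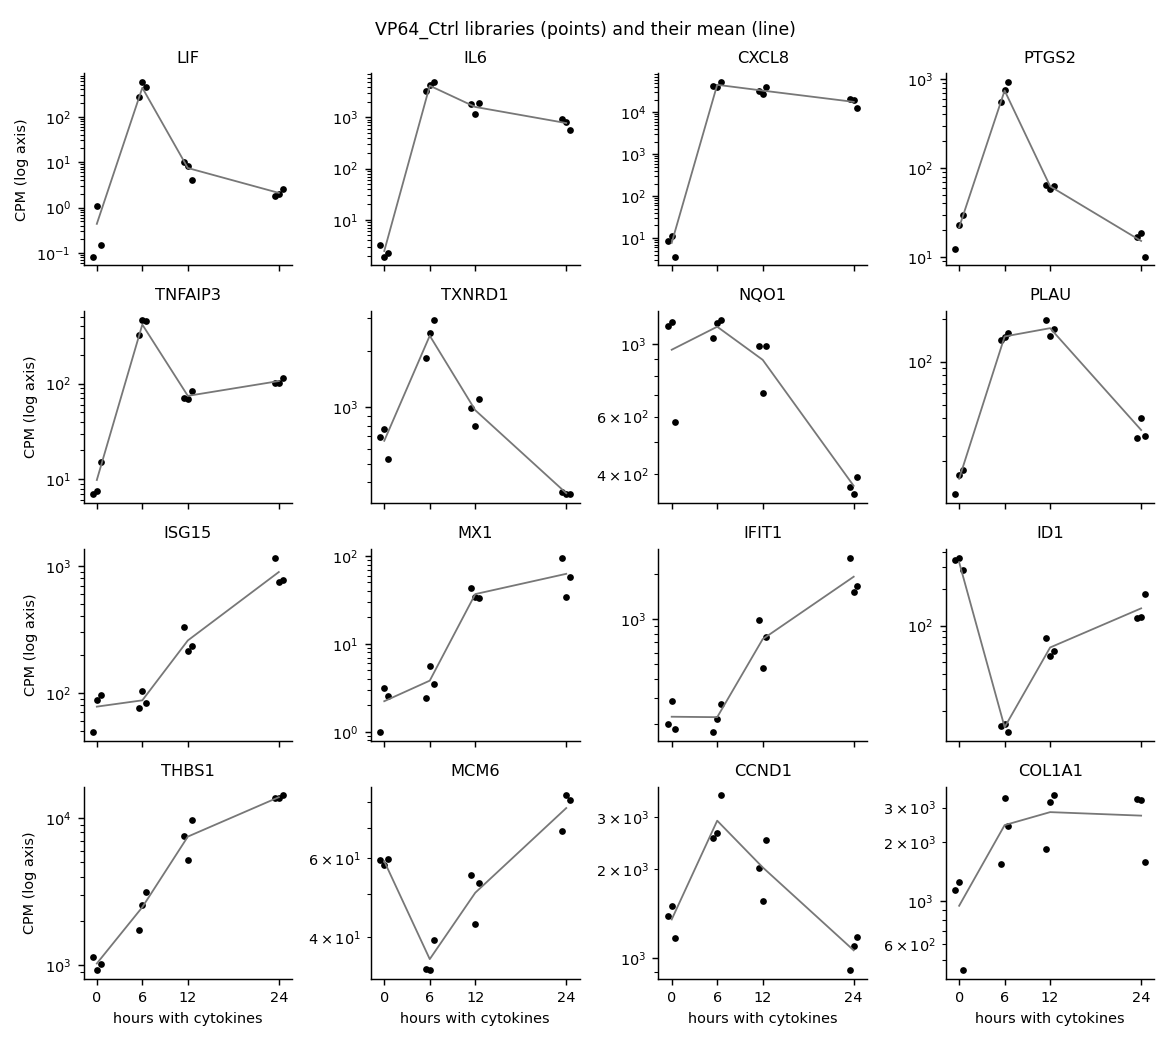
CPM (log axis) of 16 genes in the 12 VP64_Ctrl libraries against hours with TGFβ and IL-1β; points are libraries and lines join the means of 3. LIF, IL6, CXCL8, PTGS2 and TNFAIP3 peaked at 6 h, ISG15, MX1 and IFIT1 climbed from 6 to 24 h, ID1 dipped at 6 h, and COL1A1 at 24 h overlapped its range at 6 h.

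Interferon-stimulated genes had the highest median of the lists examined. Of 24 tested members, 22 were higher at 24 h and 0 were lower by edgeR, with a median log2 fold change of 2.58, and 2 (IRF1 and GBP2) did not pass. At an unadjusted p under 0.05, 1 was lower (IRF1). By DESeq2 or limma on log2 of TPM plus 1 or plus 0.1, 0 were lower, but 1 was called lower in 5 of the alternatives. The count stayed between 21 and 23 under all alternatives, including each left-out library, and the median was 2.36 to 2.80 under the 4 scalings. At 6 h, 11 of the 24 were higher than at 0 h; at 24 h all 24 were.

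ISG15, a ubiquitin-like modifier, stood at 75.2, 103 and 82.9 CPM at 6 h and at 1167, 755 and 771 CPM at 24 h (log2 fold change of 3.37 ± 0.26, adjusted p = 1.37e-11). IFIT1, which binds viral RNA, went from 178, 218 and 274 CPM to 2563, 1514 and 1663 CPM. MX1, an antiviral GTPase, went from 2.43, 5.55 and 3.48 CPM to 96.0, 34.3 and 57.9 CPM, a 17.2-fold rise. None of the 3 genes passed the test between 0 and 6 h, with log2 fold changes of 0.17 for ISG15, -0.02 for IFIT1 and 0.74 for MX1. In each of them replicate 1 was the highest of the 24 h libraries.

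Factors that drive these genes rose as well. STAT2 went from 17.2, 21.2 and 27.2 CPM to 92.3, 73.9 and 73.6 CPM, IRF9 rose 2.01-fold and IRF7 5.57-fold. IRF1, which NF-κB also induces, had risen by 3.88 on the log2 scale at 6 h and stood at 55.9, 75.7 and 76.5 CPM then and at 52.4, 53.8 and 38.2 CPM at 24 h (adjusted p = 0.0608). IFIT2 took a path of its own, with a mean of 14.1 CPM at 12 h between 51.4, 57.8 and 85.2 CPM at 6 h and 416, 249 and 341 CPM at 24 h. Transcripts of the interferon genes looked up were close to 0: IFNB1 had at most 3 counts in any of the 12 libraries, IFNA1 and IFNE at most 7, and IFNG, IFNK, IFNL1, IFNL2 and IFNL3 had 0. Other interferon genes, among them the rest of the IFNA family, were not looked up. The lookup was made after the values were seen, and such counts allow no comparison between times.

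Complement and class I antigen presentation rose in part, with 8 of 18 tested genes higher and 0 lower by edgeR (median 0.488). At an unadjusted p under 0.05, 0 were lower. By DESeq2 or limma on log2 of TPM plus 1 or plus 0.1, 0 were lower, but 1 was called lower in 1 of the alternatives. C3, the central complement component, went from 3.29, 5.80 and 1.74 CPM to 46.7, 43.7 and 55.5 CPM, and the C1 proteases C1R and C1S rose 3.79-fold and 3.72-fold. PSMB9 and PSMB8, subunits of the immunoproteasome, rose 2.62-fold and 1.90-fold, and the peptide transporter TAP2 1.88-fold. HLA-B ranged from 1361 to 4942 CPM at 6 h and from 3162 to 5347 CPM at 24 h and did not pass (adjusted p = 0.446, and 0.0141 as higher with limma on log2(TPM + 1)).

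TGFβ-linked genes showed smaller and mixed changes. Of 15 genes of SMAD signalling and feedback, 3 were higher and 4 were lower (median of -0.0452, and 0.173 with limma on log2(TPM + 1)). The shares over all genes were 8.98% and 9.45%. The 3 that rose were the ID genes, inhibitors of helix-loop-helix factors. ID1 stood at 331 CPM on average at 0 h, at 14.9, 15.6 and 13.3 CPM at 6 h and at 116, 118 and 181 CPM at 24 h, so that it recovered 9.36-fold and remained below its starting level (log2 fold change from 0 h of -1.25, adjusted p = 9.39e-06). ID3 and ID2 rose 4.04-fold and 3.91-fold. The 4 that fell were SMAD3, SMAD7, SMURF1 and SMURF2, by 3.07-fold, 2.36-fold, 2.06-fold and 1.80-fold; SMAD7 and the SMURF ligases are feedback inhibitors of the pathway. The call of SMAD7 was lost without replicate 1 at 24 h or replicate 2 at 6 h (adjusted p = 0.0762 and 0.0967), and that of SMURF1 without any of 4 libraries, replicates 2 and 3 at 24 h and 1 and 2 at 6 h (adjusted p from 0.0514 to 0.0965). With limma on log2(TPM + 0.1) none of the 4 passed (adjusted p = 0.0614 for SMAD3, 0.197 for SMAD7, 0.372 for SMURF1 and 0.228 for SMURF2), so the count of lower genes was 0 to 4 over the alternatives.

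Among ligands, receptors and antagonists, 3 of 17 were higher and 3 lower, against 8.98% and 9.45% of all genes. The counts ran from 1 to 4 higher and from 1 to 6 lower over the alternatives. INHBA, the activin A subunit, fell from 496, 687 and 658 CPM to 54.0, 58.0 and 53.5 CPM, and TGFB2 rose from 17.8, 13.1 and 18 CPM to 59.7, 66.7 and 44.7 CPM. GREM1, a BMP antagonist, rose from 1273, 2209 and 2280 CPM to 4064, 4083 and 2922 CPM, without replicate 1 at 6 h at an adjusted p of 0.0866. Activin A and TGFβ2 signal through related receptors and SMAD2 or SMAD3, so ligands of the same branch moved in opposite directions.

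Most contractile genes did not pass the test, and of all genes 8.98% were higher and 9.45% lower. Of 19 tested, 3 were higher and 0 were lower by edgeR (1 at an unadjusted p under 0.05, VCL, and 1 by DESeq2), with a median of 0.0215 that was -0.00114 with DESeq2's size factors. LMOD1, an actin nucleator of smooth muscle, went from 1.58, 2.52 and 0.58 CPM to 19.6, 21.1 and 17 CPM, and TGFB1I1, a focal adhesion protein, rose 1.84-fold. ACTA2, the α-smooth muscle actin that defines myofibroblasts, varied from 34.8 to 129 CPM at 6 h and from 70.3 to 123 CPM at 24 h (adjusted p = 0.526). Its sign turned without replicate 1 at 6 h, to a log2 fold change of -0.05.

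Collagens changed in part. Of 17 tested, 4 were higher, 1 was lower and 12 did not pass (median 0.256, against 0.0292 over all genes). Over all genes, 8.98% were called higher and 9.45% lower. COL1A1 was at 1554, 3371 and 2403 CPM and then at 3331, 3270 and 1590 CPM, in overlapping ranges, and its log2 fold change of 0.16 fell to between -0.11 and -0.01 when replicate 1 at 6 h or replicate 1 or 2 at 24 h was left out. The 2 type VI chains that the study names parted: COL6A1 rose from 31.7, 40.1 and 38.2 CPM to 72.4, 61.6 and 70.0 CPM, and COL6A3 fell from 643, 624 and 826 CPM to 333, 328 and 325 CPM. COL7A1, of anchoring fibrils, rose 1.93-fold (adjusted p = 0.00269, and 0.052 without replicate 1 at 6 h). COL10A1, with 0 counts in all 6 h libraries and at most 2.59 CPM at 24 h, was too rare for a useful bound (at least 1.28-fold higher against a floor of 3 counts per library).

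Enzymes that fold and crosslink collagen were split, with 3 of 19 higher and 3 lower, where 8.98% of all genes were higher and 9.45% lower. The prolyl hydroxylase P4HA2 rose 1.76-fold, and the crosslinking oxidases LOX and LOXL2 fell 1.79-fold and 1.95-fold, LOX with an adjusted p of 0.0627 without replicate 3 at 24 h. Of 21 elastic fibre and matricellular genes, 2 were higher and 2 lower, near those shares over all genes. The largest rise among them was that of THBS1, a matricellular protein that activates latent TGFβ. It stood at 1725, 2560 and 3163 CPM at 6 h and at 13648, 13610 and 14248 CPM at 24 h, 5.58-fold higher, with a mean of 7473 CPM at 12 h. DCN, the proteoglycan decorin, rose 2.56-fold, and TGFBI, a matrix protein named for its induction by TGFβ, fell 1.53-fold, a call lost without replicate 2 at 24 h or replicate 1 at 6 h (adjusted p = 0.0607 and 0.0808). FN1, the gene for fibronectin, did not pass (adjusted p = 0.259), but was called higher with limma on log2(TPM + 1), at a log2 fold change of 0.99 (adjusted p = 8.6e-06).

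Among matrix proteases and their inhibitors, 3 of 15 were higher and 1 was lower (8.98% and 9.45% over all genes). MMP2, a gelatinase, rose from 332, 366 and 353 CPM to 768, 710 and 615 CPM and ADAMTS1 2.06-fold, and the elastase MMP12 fell 2.15-fold. The collagenase MMP1 reached its highest mean at 12 h, 15650 CPM, and did not pass between 6 and 24 h (adjusted p = 0.706, and 0.000937 as higher with limma on log2(TPM + 1)).

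Most regulators of the plasminogen system were lower at 24 h. Of 10 tested regulators of plasminogen and coagulation, 9 were lower and 0 higher by edgeR, at an unadjusted p under 0.05 or by DESeq2 or limma (median -0.934), and 4 to 9 were lower over the alternatives. The fall was late: 2 were lower and 1 was higher at 12 h than at 6 h, and 5 were lower at 24 h than at 12 h. PLAU, the urokinase protease, stood at 143, 148 and 160 CPM at 6 h, at a mean of 172 CPM at 12 h and at 29, 40.5 and 30 CPM at 24 h. Its receptor PLAUR fell 3.68-fold and the tissue-type activator PLAT 2.21-fold. SERPINB2, an inhibitor of these proteases, rose to a mean of 12209 CPM at 12 h before it reached 1919, 1631 and 993 CPM at 24 h, against 3870, 6183 and 6182 CPM at 6 h.

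Hyaluronan genes behaved similarly, with 5 of 9 lower and 1 higher (median -0.940). HAS2, the main hyaluronan synthase, was at 224, 359 and 314 CPM at 6 h, 445 CPM on average at 12 h and 96.5, 104 and 33.9 CPM at 24 h. UGDH, which makes a sugar precursor, fell 4.62-fold and CD44, the receptor, 3.03-fold. These enzymes and receptor were thus lower at 24 h in every library than in any library at 6 h. This held for 5 of the 9 tested genes and for 16.8% of all genes.

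NRF2 target genes fell almost without exception. Of 14 tested, 13 were lower and 0 higher by edgeR, at an unadjusted p under 0.05 or by DESeq2 or limma, with a median of -1.17. In all 14 the libraries at 24 h lay below those at 6 h, as in 16.8% of all genes. TXNRD1, thioredoxin reductase, went from 1821, 2472 and 2918 CPM to 356, 348 and 344 CPM, a 6.88-fold fall to below its 0 h mean of 663 CPM (log2 fold change from 0 h of -0.93, adjusted p = 0.0011). NQO1, a quinone reductase, went from 1044, 1164 and 1189 CPM to 366, 346 and 391 CPM.

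HMOX1, heme oxygenase, fell 4.30-fold, and the cystine transporter SLC7A11 3.22-fold. The thioredoxin gene TXN, the peroxiredoxin PRDX1 and the glutathione synthesis subunit GCLM fell 2.26-fold, 2.23-fold and 2.41-fold, and GCLC, at no more than 3.03 CPM, did not pass (adjusted p = 0.185). In contrast to the cytokines, only part of this list had been raised at 6 h. Of the 14, 6 were higher and 1 was lower than at 0 h, with a median log2 fold change of 0.531. Over all genes, 16.2% were higher and 12.6% lower at 6 h than at 0 h, with a median of -0.0527. At 24 h, 7 of the 14 were lower than at 0 h, against 5.57% of all genes. The number called lower ranged from 6 to 13 over the alternatives. The antioxidant response element (TGANNNNGC, added after the values were seen) is a loose motif, present upstream of 6 of 10 of these genes and of 44.1% of tested genes.

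The cell cycle list changed in part. Of 26 tested, 10 were higher, 2 were lower and 14 did not pass (median 0.409), and the count of higher genes ranged from 7 to 16 over the alternatives other than a minimum log2 change of 1, which left 3. The replication helicase gene MCM6 went from 33.9, 33.8 and 39.4 CPM to 69.0, 83.0 and 81.1 CPM, and MCM2, MCM3 and PCNA rose 2.12-fold, 1.97-fold and 1.95-fold. The 2 that fell act on entry to the cycle: CCND1, cyclin D1, went from 2548, 2655 and 3558 CPM to 914, 1098 and 1180 CPM, and CDKN1A, the inhibitor p21, from 211, 400 and 359 CPM to 101, 97.5 and 76.4 CPM. A CCAAT box stood upstream of 16 of 20 of these genes, against 42.3% of tested genes.

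A list of inflammation-associated fibroblast genes that the study chose, which is no independent evidence of their direction, divided into 5 higher and 9 lower of 29 tested. Its median was -0.447, and 0.00623 with limma on log2(TPM + 1). LIF, PTGS2 and INHBA led the falls, and PTGS1, MMP2, COL7A1 and COL6A1 were among the rises. Of the 29, 20 had been higher at 6 h than at 0 h and 18 were higher at 24 h than at 0 h. FAP, a surface protease of activated fibroblasts, was at 107, 126 and 115 CPM and then at 156, 180 and 127 CPM (adjusted p = 0.0551, but 0.0407 with DESeq2 and 0.00964 with limma on log2(TPM + 1)). ICAM1, an adhesion molecule, fell 9.21-fold and DPP4, a surface peptidase, rose 5.73-fold. Both belong to the list of fibroblast surface genes, in which 2 of 14 were higher and 4 lower (8.98% and 9.45% over all genes).

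The same comparison was made in H47_Ctrl, a control population that shares no libraries with VP64_Ctrl. There 1604 of 10962 genes were called between 6 and 24 h (14.6%), 756 higher and 848 lower (213 and 494 with limma on log2(TPM + 1)). Of 10691 genes tested in both, 940 were called in both populations, and 937 of these had the same direction, which is 47% of those called in VP64_Ctrl and 59.1% of those called in H47_Ctrl; 3 were opposite. A test of the difference between the populations called 23 of 11422 genes (0.201%).

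The log2 fold change of LIF was -7.13 in H47_Ctrl and -7.65 in VP64_Ctrl, that of PTGS2 -6.51 and -5.64, and that of CXCL3 -3.76 and -3.43. THBS1 rose by 2.22 in H47_Ctrl and 2.48 in VP64_Ctrl, and ID1 by 3.31 and 3.23. None of these 5 was called for a difference between the populations. The interferon-stimulated genes rose in both, with 16 of 24 higher and 1 lower in H47_Ctrl and a median of 1.43 there against 2.58 in VP64_Ctrl. Of the 24, only ISG15 was called for a difference, at -1.89 in H47_Ctrl relative to VP64_Ctrl (adjusted p = 0.0352), with rises of 1.47 and 3.37. NRF2 targets counted 8 of 14 lower in H47_Ctrl, cytokines 8 of 11 and plasminogen regulators 8 of 10.

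**Figure D4:**
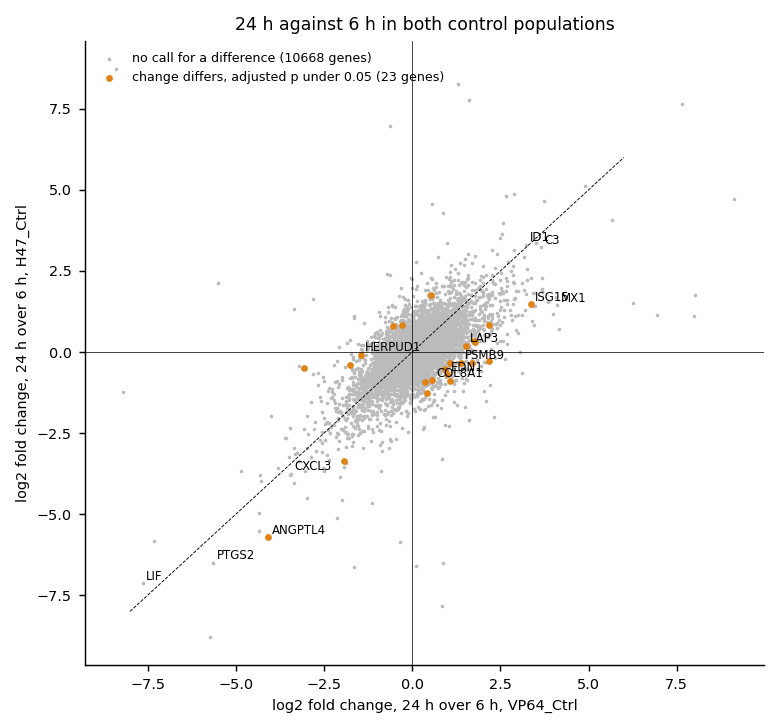
Log2 fold change at 24 h over 6 h in H47_Ctrl against that in VP64_Ctrl, each of 10691 genes a point, with the line of equal change dashed. The 23 genes for which the difference between populations passed the test are orange. LIF, PTGS2, CXCL3, ID1 and C3 lie near the line, and ISG15 lies below it.

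VP64_A, the population with the GLIS3 guide, called 1375 of 10980 genes between 6 and 24 h (12.5%), and 869 of them were called in the same direction in VP64_Ctrl, 63.2% of the VP64_A calls and 42.9% of the VP64_Ctrl calls. The difference between the 2 populations was called in 15 genes (0.137%). PTGS2 was among them: its log2 fold change was -3.02 in VP64_A and -5.64 in VP64_Ctrl (difference of 2.62, adjusted p = 0.000423). LIF fell by 5.32 in VP64_A and TXNRD1 by 1.24, also less than in VP64_Ctrl (adjusted p = 0.022 and 0.00821 for the difference). Interferon-stimulated genes numbered 23 of 24 higher and 1 lower in VP64_A, and 0 of the 24 were called for a difference by edgeR (4 at an unadjusted p under 0.05).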

How the data were processed

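Poly(A) RNA of IL11mNG fibroblasts was sequenced by the authors (Nextera XT, Illumina NextSeq). Reads were trimmed (Trim Galore), cleared of ribosomal RNA (SortMeRNA), aligned to GRCh38 (STAR) and quantified (Salmon); versions, annotation and counting strand are not given in the sources used here. The authors deposited estimated counts, not normalized between libraries, and TPM for 29744 genes; 6.38% of the estimated counts were not whole. The counts were rounded and fitted with edgeR 4.0.16 (R 4.3.3; TMM, filterByExpr with a minimum count of 10 and a minimum total of 15, two-sided quasi-likelihood F test, Benjamini-Hochberg adjustment over all tested genes) over the 24 libraries of the activation arm in 8 groups; the difference from H47_Ctrl was fitted over 48 libraries in 16 groups. The common dispersion was 0.0336 and 0.0354. Levels are CPM on TMM-scaled library sizes unless said otherwise, not corrected for gene length, and are compared between times, not genes. A group with at most 3 counts per library was treated as at the floor. Standard errors (SE) are the absolute log2 fold change divided by the square root of the F statistic, and were not fitted directly. Fits were tested on simulated counts.

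The members, gene lists and comparisons were chosen with earlier results of these data known. Named genes are the 12 largest changes in each direction (mean count of at least 20, no overlap), up to 4 called genes per direction and 3 uncalled genes of each list, genes the study names, and up to 5 per difference test; other list members are named with their values as such. Some genes are not reported here. Alternatives were DESeq2 1.42.0, its size factors, no filter, only the groups compared, limma 3.58.1 on log2 of TPM plus 1 or plus 0.1 (mean TPM of at least 1), the replicate number as a block, a minimum change of 1 and each library left out; TPM centred on the median was added after seeing the data. The columns left unmatched numbered 0.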

Additional observations from a re-analysis of the deposited data

Results flagged for a closer look

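A difference between populations in the change from 6 to 24 h was tested in the same fits, and the genes of the report that passed are given here as log2 values. No explanation was tested.

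Against VP64_A, 15 genes differed. The fall was smaller in VP64_A for LIF (difference of 2.33, adjusted p = 0.022), PTGS2 (2.62), the thioredoxin reductase TXNRD1 (1.54) and ESM1 (1.61), an endothelial-type proteoglycan. TRIM16L fell by 1.80 in VP64_Ctrl and was at 0.10 in VP64_A (difference of 1.90), but it shares sequence with TRIM16. SLC3A2, an amino acid transporter subunit, and the glycoprotein STC1 fell in VP64_Ctrl and had log2 fold changes of 0.20 and 0.27 in VP64_A (differences of 1.44 and 1.71). EDN1, endothelin, rose by 0.99 in VP64_Ctrl and fell by 1.08 in VP64_A (-2.07), and PEG10 differed by -1.12. MAGED4B had 0 counts in all 3 VP64_Ctrl libraries at 24 h, so its fitted difference of 16.8 depends on the prior count and is no bound, and it has a near-identical copy, MAGED4.

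Against H47_Ctrl, 23 genes differed. ISG15 (-1.89), PSMB9 (-1.71), LAP3 (-1.35) and ZNFX1 (-1.31) had smaller or negative fold changes in H47_Ctrl. MYD88 (-1.42), COL8A1 (-1.45), FGF7 (-1.95), EDN1 (-1.68) and PEG10 (-1.45) rose in VP64_Ctrl and had negative fold changes in H47_Ctrl. ANGPTL4 fell further in H47_Ctrl (-1.63). LOXL4 rose more there (1.24), and HERPUD1, a gene of the endoplasmic reticulum, fell by 1.44 in VP64_Ctrl and had a log2 fold change of -0.08 in H47_Ctrl (1.35).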

How the results depend on the processing

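Between 6 and 24 h in VP64_Ctrl, 2024 genes were called, 1987 with DESeq2, 1891 with only the groups compared and 953 with a minimum log2 change of 1. That minimum gave 544 for 12 against 6 h, 392 for 24 against 12 h, 1539 and 817 for 6 and 24 h against 0 h, and 793 in H47_Ctrl. Limma on log2(TPM + 1) gave 481 for 12 against 6 h (291 higher, 190 lower; edgeR 471 and 543), 522 for 24 against 12 h (403 and 119; edgeR 503 and 417), 5735 for 6 against 0 h, 707 in H47_Ctrl and 7 and 44 for the differences from VP64_A and H47_Ctrl. With log2(TPM + 0.1) these were 505, 467, 5536 and 699, and 4 for VP64_A. The 2 differences counted 67 and 122 without a filter and 36 and 40 with DESeq2. Leaving out 1 library gave 1479 to 1719 genes for 24 against 6 h, 754 to 820 for 12 against 6 h, 604 to 734 for 24 against 12 h, 2380 to 2887 and 1149 to 1811 for 6 and 24 h against 0 h, 1122 to 1328 in H47_Ctrl, and 7 to 15 and 11 to 29 for the differences; 1149 came without replicate 1 at 24 h. The median of all genes moved from 0.0292 to 0.331 with TPM and to -0.107 with TPM centred on the median, added after seeing the data.

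Replicate numbers did not pair the libraries: their deviations correlated at -0.0477, 0.0113 and -0.0242. A replicate block gave 2070 genes for 24 against 6 h, and with it the call of P4HA3 was lost (adjusted p = 0.0556) and that of IRF1 gained.

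With limma on log2(TPM + 1) and log2(TPM + 0.1), the signs turned for SOD2 (0.23 and 0.24), PTGFR (0.32 and 0.37) and GLIS3 (0.0469 and 0.11). Single left-out libraries turned PTGFR (range -0.362 to 0.0259), ACTA2 (-0.0527 to 0.896) and COL1A1 (-0.11 to 0.467). No gene that passed the test and was followed through the alternatives changed sign, but calls were lost and gained. TAB2 was not followed. Of the single genes followed, 29 lost their call with limma on log2(TPM + 1) and 34 with log2(TPM + 0.1), and 10 gained one with either. Both fits lost BIRC3, IL11, JUN, SOCS3, SMAD7, SMURF1, SMURF2, LOX, TGFBI, MMP12, GCLM and SQLE, the first alone SFRP1, and the second alone CXCL8, SMAD3 and SLC7A11; both called FN1, MMP1, HLA-B, FAP and GBP2 higher. With TPM centred on the median, 5 lost their call and IRF1 gained one. DESeq2 lost and gained 3 each. Counts of members called higher ran from 1 to 5 for collagens, 1 to 8 for collagen folding and crosslinking, 2 to 7 for matricellular genes and 2 to 6 for matrix proteases (1 with a minimum log2 change of 1), and those called lower from 1 to 6 for TGFβ and BMP ligands and from 3 to 5 for hyaluronan genes. The cause of these changes was not tested, except that leaving out a library leaves fewer samples. At 2321995 to 7074989 counts per library, genes under about 1 CPM rest on a few counts, and their changes could not be measured closely.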

Other observations

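Some of the largest rises lay outside the cytokine and interferon lists. ZP4, a zona pellucida glycoprotein known from the egg coat, was at 1.15, 0.757 and 1.16 CPM at 6 h and at 31.4, 32.1 and 29.3 CPM at 24 h, with a mean of 25.3 CPM at 12 h, and it rose by 5.11 on the log2 scale in H47_Ctrl and by 4.68 in VP64_A as well. IGF2, a fetal growth factor, had 0 counts in all 3 libraries at 6 h and 10.9, 7.78 and 15.6 CPM at 24 h, at least 11.7-fold higher against a floor of 3 counts per library; it overlaps INS-IGF2, and reads of the 2 were not told apart here. FZD2, a WNT receptor, rose from 0.716, 1.77 and 1.16 CPM to 8.83, 8.42 and 9.45 CPM, its mean at 0 h being 9.02 CPM, and the WNT antagonist SFRP1 fell 4.55-fold (with limma on log2(TPM + 1), a log2 fold change of -0.67 and an adjusted p of 0.0911). SLX1B, which has a near-identical copy, was at 3.01, 0 and 0 CPM and then at 26.6, 35.3 and 23.1 CPM, and lost its call without replicate 2 at 6 h. Of 11 WNT genes tested, 4 were higher and 2 lower, against 8.98% and 9.45% of all genes.

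Large falls outside the lists included ESM1, from 1719, 1760 and 2023 CPM to 88.0, 103 and 90.1 CPM, and the arginine transporter SLC7A2, from 533, 492 and 661 CPM to 49.8, 51.5 and 41.5 CPM. ERRFI1, a feedback inhibitor of the EGF receptor, fell 13.9-fold. BCL2A1, an NF-κB-induced survival gene, went from 13.5, 13.1 and 10.4 CPM to 1, 0 and 0 counts. Of 24 genes of cholesterol synthesis and uptake, 6 were higher and 1 lower (median 0.412), with SQLE down 1.79-fold, and 4 to 11 were higher over the alternatives other than a minimum log2 change of 1, which left 2. Of the other metabolic lists, 2 of 25 glycolysis and hypoxia genes were higher and 3 lower, and 0 of 20 respiratory chain genes were higher by edgeR (0 at an unadjusted p under 0.05, 0 by DESeq2 and 2 by limma) and 1 was lower. Ribosome biogenesis counted 1 higher and 1 lower of 20, and endoplasmic reticulum folding 2 and 2 of 20. From the glycolysis list on, these counts lay near or below the shares over all genes, 8.98% higher and 9.45% lower.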
